A study of Mus musculus with 4 samples.

Results

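The complement genes C1qa, C1qb, C1qc, C4b, C3, Cfb, Hc and C6 were followed by the cell type that carried their transcripts in mouse lung adenocarcinoma. They were chosen by symbol, and all 8 are among the 28006 features of the deposited matrices. Single-cell RNA sequencing had been done on 4 libraries, 1 for each combination of 2 genotypes and 2 preparations. All 4 groups carried p53frt and Rosa-FSF-CreERT2, alleles acted on by the Flp recombinase, on a mixed 129/B6 background. KP mice carried Foxa1flox/+ and Foxa2flox/+, so the controls hold floxed copies too, and KPF1F2 mice are labelled Foxa1flox and Foxa2flox. Tumours were started with Ad5-mSPC-FlpO, an adenovirus that drives Flp from a surfactant protein C promoter. Every mouse received 4 daily injections of tamoxifen at 120 mg/kg in week 10, which activates CreERT2 where Flp has acted, and tumours were collected in week 12. CRE-ERT2 transcript stood at 19.95 to 36.1 counts per 1000000 UMIs (CPM) in the epithelial-like cells of the 4 libraries, at 0 to 2.50 CPM in fibroblast-like cells and at 0 in macrophage-like and mesothelial-like cells. The floxed alleles of the host cells were thus in cells with little or no measured Cre. The pre-depletion libraries hold all cells of the digested tumours, and the post-depletion libraries were made after magnetic removal of CD45-positive (blood) and CD31-positive (endothelial) cells. Whether a library pools several mice is not given in the sources used here. With 1 library per group no error between animals could be measured, no test was possible, and every 95% interval below covers counting error only.

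Complement is a cascade of plasma proteins that marks cells and debris for clearance and can open membranes. C1q, built from the A, B and C chains, recognises targets and starts the classical pathway through C4. C3 is the hub on which all pathways meet, factor B (Cfb) forms the alternative pathway convertase with C3, and C5 (gene symbol Hc) and C6 begin the membrane attack complex. The liver makes most plasma complement, while macrophages are the usual tissue source of C1q and type 2 alveolar cells, fibroblasts and mesothelium can make other components.

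The genes lie at the following places in GRCm38 (GENCODE M21). The 3 C1q genes are neighbours on the minus strand of chromosome 4, C1qb at 136880129 to 136886187, C1qc at 136889804 to 136893065 and C1qa at 136895917 to 136898803, each with 3 exons. C4b (34728380 to 34743882), Cfb (34856374 to 34862518) and C3 (57203970 to 57228136) are on the minus strand of chromosome 17, with 41, 18 and 41 exons in their longest transcripts. Hc covers 34983331 to 35061438 on the minus strand of chromosome 2 with 41 exons, and C6 covers 4727175 to 4814967 on the plus strand of chromosome 15 with 17. C4a, a near-identical copy of C4b, was not among the features, so the division of reads between the copies is uncertain. Cfb overlaps Gm20547 on the same strand, which had 0 UMIs in all 4 libraries, and Hc overlaps Gm13449 on the other strand.

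Start-site sequence was available for C1qb, C1qc, C3, C6 and Hc, and the 250 bases before the annotated start (RefSeq, GRCm38.p6) are shown 5′ to 3′ because these genes had separate cell sources. Capitals mark matches on either strand to a C/EBP motif (TTGCNNAA), a PU.1 motif (GAGGAAGT) or the forkhead cores TGTTTAC and TATTTAC. C/EBP factors act in liver, alveolar and myeloid cells, PU.1 acts in myeloid cells, and FOXA factors bind the forkhead core.
C1qb (chr4:136886201-136886450): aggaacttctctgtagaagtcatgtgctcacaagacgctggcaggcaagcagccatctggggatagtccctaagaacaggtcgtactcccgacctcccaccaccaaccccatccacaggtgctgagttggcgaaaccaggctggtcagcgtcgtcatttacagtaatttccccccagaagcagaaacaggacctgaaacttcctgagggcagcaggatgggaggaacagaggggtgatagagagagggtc
C1qc (chr4:136892915-136893164): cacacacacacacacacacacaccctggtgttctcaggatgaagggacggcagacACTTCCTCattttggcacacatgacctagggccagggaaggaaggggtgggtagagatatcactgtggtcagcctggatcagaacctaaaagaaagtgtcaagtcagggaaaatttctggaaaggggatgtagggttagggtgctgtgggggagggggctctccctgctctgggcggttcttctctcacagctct
C3 (chr17:57228137-57228386): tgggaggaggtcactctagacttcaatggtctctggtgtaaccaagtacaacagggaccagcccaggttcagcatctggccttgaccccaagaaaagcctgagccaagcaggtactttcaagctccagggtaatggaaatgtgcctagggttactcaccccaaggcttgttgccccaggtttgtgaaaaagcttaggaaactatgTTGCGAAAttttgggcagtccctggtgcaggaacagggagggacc
Hc (chr2:35061413-35061662): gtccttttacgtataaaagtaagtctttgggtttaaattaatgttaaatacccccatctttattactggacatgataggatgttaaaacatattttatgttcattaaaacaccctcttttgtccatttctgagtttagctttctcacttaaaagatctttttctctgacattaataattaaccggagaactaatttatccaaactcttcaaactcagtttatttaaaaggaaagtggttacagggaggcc
C6 (chr15:4726960-4727209): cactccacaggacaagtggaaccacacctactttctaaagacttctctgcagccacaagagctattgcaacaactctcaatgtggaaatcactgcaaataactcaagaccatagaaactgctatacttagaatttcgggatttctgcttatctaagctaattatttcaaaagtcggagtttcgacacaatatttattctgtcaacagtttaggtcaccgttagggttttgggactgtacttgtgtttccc
C3 held TTGCGAAA from 45 to 38 bases before the start, a match that 9.56% of 32851 promoters also hold. C1qc held ACTTCCTC, the reverse complement of the PU.1 letters, from 195 to 188 bases before the RefSeq start, which 2.44% of promoters hold. The windows of C1qc, C6 and Hc overlap the GENCODE spans given above, so distances hold for the RefSeq starts only. Neither forkhead core was found in these 5 windows, against 3.17% and 2.73% of all promoters. A match is a description of letters and not a bound site.

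Cells were kept at 1000 UMIs (unique molecule counts) or more, which left 3616 KP and 3377 KPF1F2 cells before depletion and 3375 and 2475 after it, with median depths of 7080 to 16410 UMIs and library totals of 42828959 to 55282011 UMIs. They formed 34 clusters without use of any complement gene, named "-like" from marker lists. Epithelial-like cells numbered 678 and 191 before depletion and 2672 and 1944 after it in KP and KPF1F2. Shallow cluster 4, left unnamed, had 9 epithelial and 10 type 2 markers raised. It held 113 KP and 0 KPF1F2 cells before depletion and 582 and 3 after it. The epithelial-like counts, levels and shares leave these cells out. Between 1 and 4 cell barcodes were shared by any 2 libraries. Foxa1 and Foxa2 had 0 UMIs under their own identifiers in every library, and an added entry named Foxa1_2 had 16.6 and 16.7 CPM in KP epithelial-like cells and 10.8 and 3.60 in KPF1F2. A second added entry, Foxa1_1, had the opposite order, at 4.15 and 2.68 CPM in KP and 5.39 and 7.97 CPM in KPF1F2, and what either entry covers is not given in the sources used here. Libraries also differed by sex transcripts with genotype: Xist reached 834 and 873 CPM in KP against 0.163 and 0.289 in KPF1F2, and Ddx3y was at 0 in both KP libraries against 79.4 and 45.5 CPM in KPF1F2. The KPF1F2 pre-depletion title carries the number 18385 and the other 3 carry 18836. Genotype, sex transcripts and, before depletion, that number cannot be told apart. Epithelial-like cells of the 2 genotypes fell in different clusters: KP cells lay mostly in clusters 2, 3, 8 and 9, and KPF1F2 cells in clusters 27, 20 and 2. Sftpc, the type 2 surfactant transcript, was at 110503 and 48218 CPM in the class sums before depletion and 85203 and 39989 CPM after it, and after depletion it was at 494 CPM in KPF1F2 cluster 20 and at 218214 CPM in KP cluster 2. Type 2-like clusters made up 604 and 138 of the cells before depletion and 2348 and 1500 after it. They took in cluster 8, nearly all KP and led by keratins, but not cluster 20, nearly all KPF1F2 and also led by keratins.

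**Figure D1:**
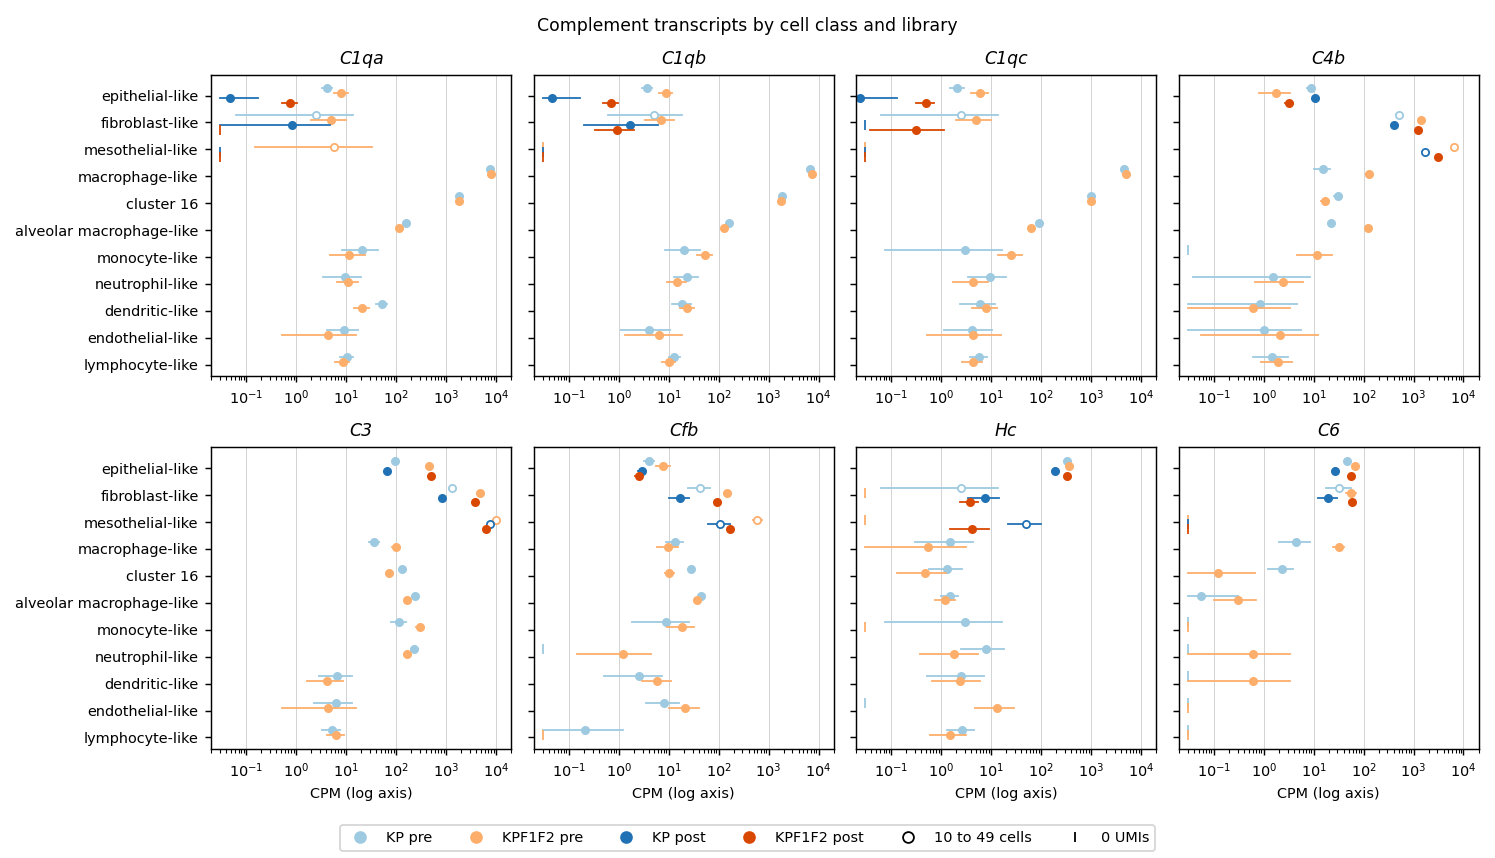
Level of the 8 genes in CPM (log axis) by cell class and library, with 95% counting intervals; open circles are classes of 10 to 49 cells and ticks at the base are classes with 0 UMIs. C1qa, C1qb and C1qc peak in macrophage-like cells, C4b and C3 in mesothelial-like and fibroblast-like cells, and Hc in epithelial-like cells.

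**Figure D2:**
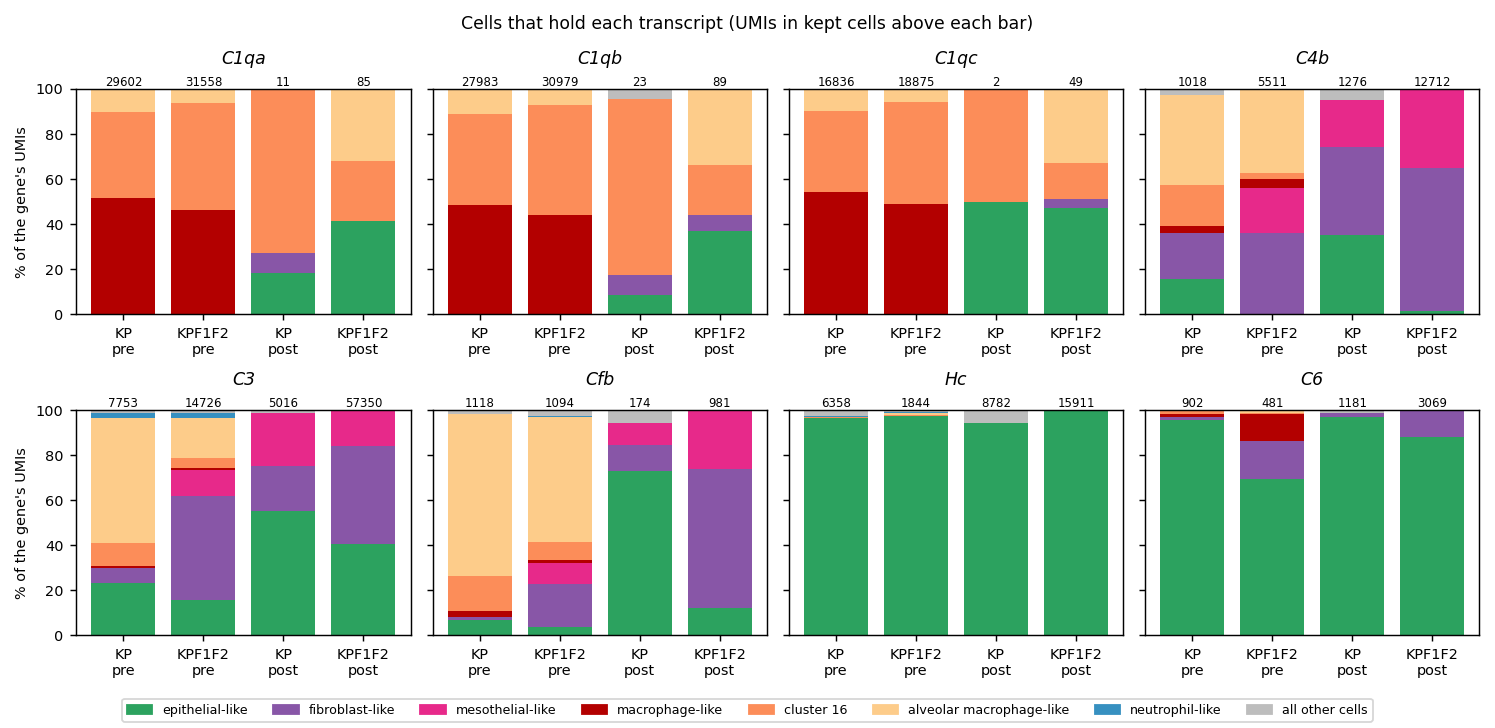
Percent of each gene's UMIs held by each cell class in each library, with the gene's UMI total above the bar. C1qa comes from macrophage-like cells and cluster 16 before depletion, and Hc from epithelial-like cells in all 4 libraries. Fibroblast-like cells hold the largest share of C3 in both KPF1F2 libraries (45.9% and 43.5%) but not in KP.

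C1q, the recognition protein, was carried by macrophage-like cells other than the resting alveolar kind, and the KPF1F2 over KP ratios of its 3 chains there were 1.07 to 1.13. C1qa was at 7495 CPM (7376 to 7615) in the 147 macrophage-like cells of KP and at 7997 CPM (7867 to 8128) in the 167 of KPF1F2. C1qb was at 6635 and 7507 CPM, and C1qc at 4489 and 5077 CPM. The KPF1F2 over KP log2 folds, on the log2(CPM + 1) scale used throughout, were 0.09 for C1qa, 0.18 for C1qb and 0.18 for C1qc. These cells formed cluster 21 and carried Csf1r at 778 and 958 CPM and Apoe at 39233 and 14881 CPM. A C1qa UMI was seen in 98.6% and 97.6% of them, and in 100% of those deep enough to be thinned to 3000 UMIs. Cells below that depth do not enter the thinned shares given here and below. The median cell had 7269 CPM of C1qa in KP and 7807 CPM in KPF1F2, so the level was a property of most cells and not of a few. The 3 chains were found in near-fixed proportion: C1qa made up 40.3% and 38.9% of C1q UMIs there, C1qb 35.6% and 36.5%, and C1qc 24.1% and 24.7%. UMIs from the 3′ end count molecules without a length factor, which allows the chains to be set side by side.

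Resting alveolar macrophage-like cells stood at the other end. Cluster 0, with Chil3 at 23177 and 31949 CPM, held C1qa at 13.4 CPM in KP and 17.1 CPM in KPF1F2. Lymphocyte-like cells, which should lack C1q, were at 10.3 and 8.45 CPM. After thinning, 1.72% and 2.76% of cluster 0 cells had a C1qa UMI against 2.44% and 2.37% of lymphocyte-like cells (median depths before thinning 21548 and 21742 UMIs in cluster 0, 4615 and 4063 in lymphocyte-like cells). The thinned shares were thus near the lymphocyte-like level, while the KPF1F2 CPM of cluster 0 was above it. Whether C1qa in cluster 0 is background was not tested. C1qb in cluster 0 stood above the lymphocyte-like level, at 29.02 and 23.2 CPM against 13.1 and 9.97 CPM, and after thinning in 4.01% and 4.21% of cells against 2.98% and 3.30%. The order of the genotypes was the reverse in the whole alveolar macrophage-like class, at 160 CPM in KP and 113 CPM in KPF1F2 (log2 fold -0.49, and 0.33 in cluster 0 alone), whose C1qa came mainly from dividing cluster 17 (Mki67 at 713 and 529 CPM), at 1902 and 774 CPM. There 43.1% and 48.4% of cells had a C1qa UMI and the median cell had none, so the cluster was mixed in C1qa.

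Cluster 16 was the second large C1q source. Its 289 KP and 377 KPF1F2 cells held markers of more than 1 macrophage and dendritic set and were left unnamed. C1qa was at 1835 CPM in KP and 1789 CPM in KPF1F2. Divided by finer clusters after the data were seen, it gave 16a, at 992 and 1287 CPM, and 16b, at 3142 and 2458 CPM. The alveolar macrophage marker Chil3 was at 5558 and 31046 CPM in 16a, so the genotypes may not be matched in 16a, here and below. The epithelial marker Epcam was at 340 and 143 CPM in 16b, so that piece carried transcript of another cell type. Macrophage-like cells gave 51.4% of C1qa UMIs in KP and 46.0% in KPF1F2 from 3.75% and 4.24% of all UMIs, and cluster 16 gave 38.1% and 47.6%. The library totals of C1qa were 29602 and 31558 UMIs before depletion and 11 and 85 after it, when no macrophage-like cell and 1 and 2 cells of cluster 16 were kept. Epithelial-like cells had 4.203 and 7.98 CPM before depletion, under the lymphocyte-like level in CPM. In UMIs these were 78 in 678 cells and 40 in 191 cells. The shallower lymphocyte-like cells held 48 in 925 and 39 in 964, so the order differs per cell. Whether the epithelial-like value is background was not tested.

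**Figure D3:**
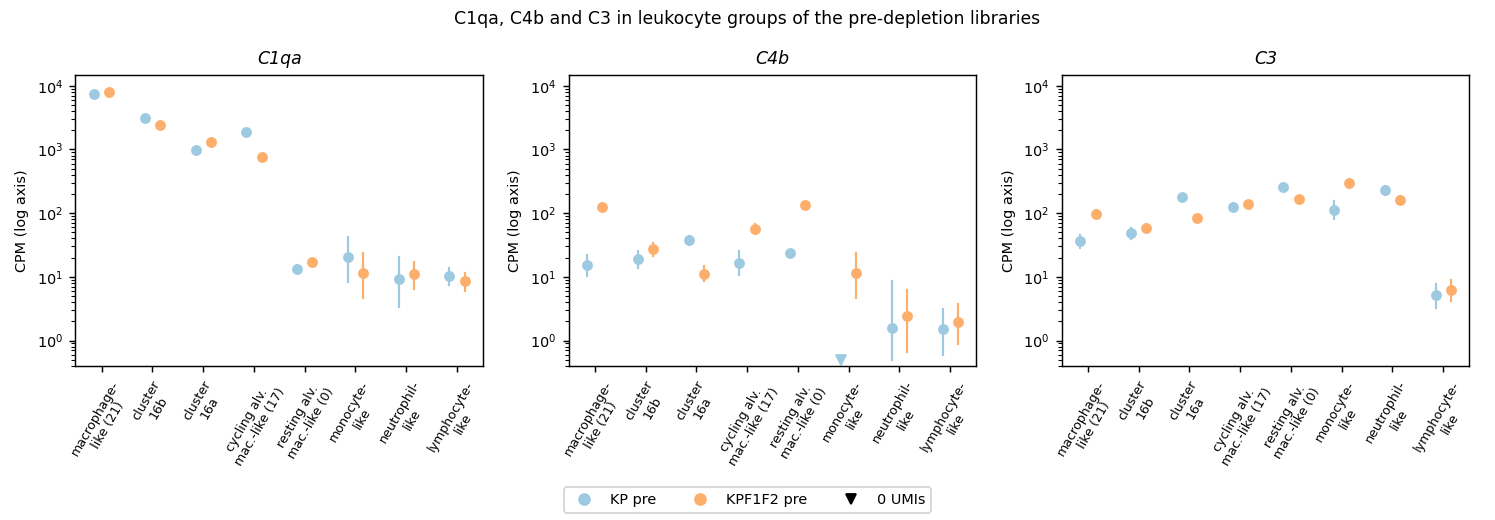
C1qa, C4b and C3 in CPM (log axis) in the blood-cell groups of the 2 pre-depletion libraries, with 95% counting intervals. C1qa separates cluster 21 from cluster 0 in both genotypes, whereas C4b separates the genotypes within cluster 0 and cluster 21.

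C4b, the substrate that C1 cleaves, was highest in mesothelial-like and fibroblast-like cells, with a lower level in macrophages that differed by genotype. Before depletion alveolar macrophage-like cells, being numerous, held 40.2% of C4b UMIs in KP and 36.9% in KPF1F2, and fibroblast-like cells held 20.1% and 36.0%. After depletion fibroblast-like cells held 38.8% and 63.6% and mesothelial-like cells 21.1% and 35.2%, while epithelial-like cells, with most of the UMIs of these libraries, held 35.3% and 1.196%. In mesothelial-like cells (cluster 31, with Upk3b at 2202 to 2467 CPM and Msln at 2095 to 4000 CPM) C4b was at 6314 CPM in 11 KPF1F2 cells before depletion, 1687 CPM in 15 KP cells and 3042 CPM in 83 KPF1F2 cells after it. No such cell was kept from KP before depletion. The 15 KP cells also held Sftpc, a type 2 transcript, at 22490 CPM, so that sum is a mixture. In fibroblast-like cells, of which 30 KP and 99 KPF1F2 cells were kept before depletion, C4b was at 513 and 1381 CPM before depletion and at 412 and 1248 CPM after it. Both KPF1F2 sums lay above both KP sums, and the post-depletion ratio was 3.03 (2.76 to 3.32), a log2 fold of 1.60.

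The fibroblast-like class had a different make-up in each genotype. Cluster 24, marked by Acta2 and Tagln as well as collagens, held 27, 53, 88 and 164 cells in KP and KPF1F2 before and then KP and KPF1F2 after depletion, and cluster 29, marked by Pi16 and Dcn, held 3, 46, 14 and 259. Within cluster 24 alone C4b was at 237 CPM in KP and 640 CPM in KPF1F2 after depletion, a log2 fold of 1.43. Within cluster 29 it was at 1614 CPM in the 14 KP cells and 1617 CPM in the 259 KPF1F2 cells, a pair of intervals that overlap (1418 to 1829, and 1578 to 1656). The genotype difference of the class was thus present in cluster 24, while in cluster 29 the KP value rests on 14 cells. Cluster 24 had 9 fibroblast and 9 mural (pericyte and smooth muscle) markers raised, so it may mix these kinds of cell. Whether that mix differed by genotype was not tested, here and for the other genes below.

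Alveolar macrophage-like cells had C4b at 22.5 CPM in KP and 124 CPM in KPF1F2, a ratio of 5.50 (4.95 to 6.14) and a log2 fold of 2.41. Cluster 0 alone gave 23.4 and 134 CPM. A C4b UMI was seen in 19.8% and 56.4% of its cells, and in 6.15% and 26.6% after thinning, against 0.407% and 0.792% of thinned lymphocyte-like cells. Macrophage-like cells were at 15.3 and 127 CPM, a ratio of 8.32 (5.70 to 12.5), but only 9.52% and 15.6% of cells had a UMI, so the difference sat in few cells. Cluster 16 as a whole was at 30.2 and 17.04 CPM, but its pieces differed: 16a was at 37.6 CPM in KP and 11.3 CPM in KPF1F2, and 16b at 19.0 and 27.03 CPM. Lymphocyte-like cells were at 1.498 and 1.95 CPM and neutrophil-like cells at 1.55 and 2.44 CPM. Fibroblast transcript in the same cells was close to 0: Col1a1 was at 0.5 and 0.4 CPM in cluster 0 and at 0.5 and 0 in macrophage-like cells. Xist was at 773 and 0.304 CPM in alveolar macrophage-like cells and Ddx3y at 0 and 76.8 CPM, so sex and genotype cannot be told apart in the C4b difference. In this class 5403 genes had a mean level of at least 20 CPM, of which 2.39% differed by 2-fold or more and 1.72% were 2-fold higher in KPF1F2. Of the 8 genes, 6 reached that mean, and C4b alone was past 2-fold. Epithelial-like cells had little C4b, at 8.67 and 1.80 CPM before depletion and 10.5 and 3.22 CPM after it, with KP above KPF1F2 in either preparation.

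C3, the hub, had its largest source in alveolar macrophage-like cells in KP before depletion, in epithelial-like cells in KP after it and in fibroblast-like cells in both KPF1F2 libraries. Before depletion 55.6% of KP C3 UMIs came from alveolar macrophage-like cells, whereas in KPF1F2 45.9% came from fibroblast-like cells that held 3.36% of all UMIs. After depletion epithelial-like cells gave 55.2% in KP and 40.4% in KPF1F2, fibroblast-like cells 19.9% and 43.5%, and mesothelial-like cells 23.8% and 16.1%. The KP mesothelial share came from 15 cells with 0.342% of the UMIs. Epithelial-like cells held 92.0% and 85.4% of all UMIs after depletion, so their C3 shares were below their shares of all UMIs. Library totals were 7753 and 14726 C3 UMIs before depletion and 5016 and 57350 after it.

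In epithelial-like cells C3 was at 96.6 CPM in KP and 461 CPM in KPF1F2 before depletion, and at 64.5 and 490 CPM after it. The KPF1F2 values lay above both KP values in either preparation, with ratios of 4.77 (4.48 to 5.08) and 7.60 (7.31 to 7.91) and log2 folds of 2.24 and 2.91. Thinned to equal depth, 25.6% and 56.2% of cells had a C3 UMI before depletion and 17.3% and 51.1% after it, against 1.49% and 1.19% of lymphocyte-like cells. In the class as a whole 7.98% of genes before depletion and 8.57% after it differed by 2-fold or more, 5.04% and 4.76% being higher in KPF1F2, and 3.02% were 2-fold higher in both preparations. Before depletion these were 284 higher and 166 lower genes, against 212 and 216 under TMM scaling. Of the 8 genes 3, namely C3, Hc and C6, reached a mean of 20 CPM, of which C3 was 2-fold higher in both preparations and C6 after depletion. Within type 2-like clusters C3 was at 103 and 659 CPM before depletion and 70.2 and 760 CPM after it. These clusters leave out KPF1F2 cluster 20 and keep KP cluster 8, both low in C3. The genotypes are thus not matched in this unit.

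The C3 difference was followed by cluster, although the genotypes shared few clusters and cluster 27 held only 6 and 7 KP cells. KPF1F2 cluster 27, which carried type 2 markers together with the type 1 marker Ager (3529 and 3681 CPM), had C3 at 846 CPM in 89 cells and 1005 CPM in 912 cells before and after depletion. KPF1F2 cluster 20, with keratins and little Ager (306 and 204 CPM), had 39.1 CPM in 28 cells and 30.5 CPM in 401. The ratio of cluster 27 to cluster 20 was 21.6 before depletion and 32.9 (30.2 to 36.0) after it, so KPF1F2 epithelium was not uniform. The KP clusters 3, 8 and 9 were at 13.1 to 47.5 CPM, close to cluster 20. Cluster 2, with the most surfactant transcripts, held C3 at 236 and 306 CPM before depletion and 234 and 323 CPM after it, a post-depletion log2 fold of 0.46. C3 in the surfactant-rich cells thus differed less between KP and KPF1F2 libraries than in the class. KPF1F2 cells of cluster 2 carried little Cre transcript, unlike KP cells of cluster 2 (values given with Hc below). They had Foxa1_2 at 22.5 and 13.5 CPM, against 12.4 and 10.8 CPM in KP. Cluster 2 therefore does not set cells with Cre transcript of the genotypes side by side.

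Cre recombinase transcript was used as a second division. Epithelial-like cells with a CRE-ERT2 UMI, which are deeper cells by selection, had C3 at 60.1 and 460 CPM before depletion and 34.7 and 396 CPM after it. In these cells Foxa1_2 was measured at 17.4 and 16.9 CPM in KP against 0.487 and 0.325 CPM in KPF1F2, and Foxa1_1 at 4.46 and 2.18 CPM against 8.76 and 9.87 CPM. Cells with no CRE-ERT2 UMI had C3 at 165 and 462 CPM before depletion and at 95.8 and 593 CPM after it. KPF1F2 exceeded KP in each division.

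**Figure D4:**
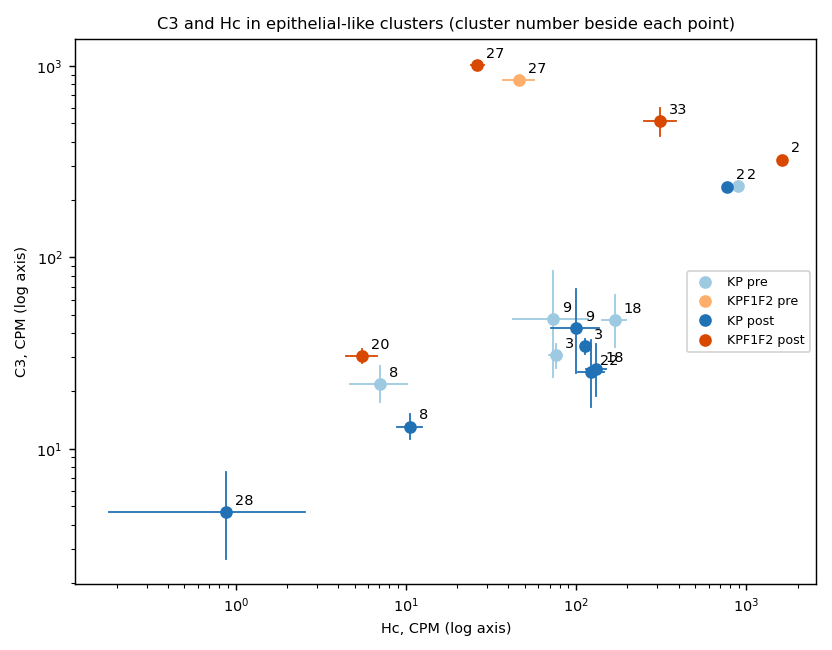
Hc (x axis) against C3 (y axis) in CPM on log axes for epithelial clusters of 50 or more cells in a library, with 95% counting intervals. Cluster 2 lies at high Hc in both genotypes, and KPF1F2 cluster 27 lies at high C3 with low Hc.

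Fibroblast-like cells were rich in C3: 1318 and 4707 CPM before depletion and 829 and 3852 CPM after it. The post-depletion ratio was 4.64 (4.36 to 4.95), a log2 fold of 2.21, and cluster 24 alone gave 340 and 1488 CPM. Cluster 29 held 4199 CPM in KP and 5285 CPM in KPF1F2, a smaller difference than in the class, whose KPF1F2 cells were mostly of this cluster. Mesothelial-like cells were higher still, at 9926 CPM before depletion in KPF1F2 and at 7480 and 6286 CPM after it. Sftpc as a measure of epithelial carry-over in fibroblast-like cells was at 465 and 71.0 CPM before depletion and 2602 and 476 CPM after it, and its part in the C3 difference was not tested.

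C3 differed in direction among blood-cell groups. Alveolar macrophage-like cells had 237 CPM in KP and 162 CPM in KPF1F2 (log2 fold -0.54), and cluster 16 had 128 and 73.2 CPM. Within cluster 16 the lower KPF1F2 value was in 16a, at 181 and 82.9 CPM, while 16b had 48.0 and 58.8 CPM. Macrophage-like cells had 36.5 and 97.4 CPM, and the 50 and 90 monocyte-like cells had 112 and 294 CPM. Neutrophil-like cells had 231 and 163 CPM, a log2 fold of -0.50 that is near the median of all genes in that class (-0.52) and turns to 0.27 under TMM scaling. Lymphocyte-like cells, shallower than most of these groups, were at 5.14 and 6.28 CPM and are given as a low reference. The share of genes past 2-fold was 6.9% in macrophage-like cells (3.83% higher in KPF1F2), 4.15% in cluster 16 and 28.5% in neutrophil-like cells. In macrophage-like cells 5 of the 8 genes reached 20 CPM, of which C4b and C3 were past 2-fold. There C4b was at 15.3 CPM in KP and reached the mean of 20 CPM through KPF1F2. In cluster 16 none of the 5 measured was past 2-fold.

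Cfb, the alternative pathway protease, was a low transcript whose level was highest in mesothelial-like and fibroblast-like cells. Mesothelial-like cells had 600.0 CPM in KPF1F2 before depletion and 107 and 173 CPM in KP and KPF1F2 after it. Fibroblast-like cells had 42.5 and 145 CPM before depletion and 16.7 and 93.7 CPM after it, and Cfb in cluster 29 was at 276 CPM before depletion in KPF1F2 and at 105 and 140 CPM after it. The fibroblast log2 fold after depletion was 2.42, from 20 and 607 UMIs, with a ratio of 5.63 (3.61 to 9.28). Alveolar macrophage-like cells had 44.4 and 36.9 CPM and, being numerous, held 72.2% and 55.4% of Cfb UMIs before depletion. After depletion epithelial-like cells held 73.0% of the 174 Cfb UMIs in KP, and fibroblast-like cells held 61.9% of the 981 in KPF1F2. These cells held 92.0% and 11.7% of all UMIs in those libraries. Epithelial-like cells had 4.09 and 7.78 CPM before depletion and 2.96 and 2.52 CPM after it, with no order by genotype that held in both preparations. Lymphocyte-like cells had 1 UMI in KP and 0 in KPF1F2, whose 3-UMI limit is 0.650 CPM.

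Hc, which encodes C5, was an epithelial transcript. Epithelial-like cells held between 94.2% and 99.8% of its UMIs in the 4 libraries. In KP and KPF1F2 they held 34.3% and 11.7% of all UMIs before depletion and 92.0% and 85.4% after it. The levels were 331 and 359 CPM in KP and KPF1F2 before depletion and 193 and 336 CPM after it, with log2 folds of 0.12 and 0.80. Cluster 2, the surfactant-rich type 2-like cells, was the main source and held 85.2%, 86.5%, 69.7% and 92.0% of Hc UMIs (KP then KPF1F2, before and then after depletion). Over all type 2-like clusters Hc was at 352 and 554 CPM before depletion and 216 and 532 CPM after it. That unit leaves out KPF1F2 cluster 20 and keeps KP cluster 8, both low in Hc. In cluster 2 Hc was at 895 and 1495 CPM before depletion and at 771 and 1609 CPM after it, and the post-depletion ratio was 2.09 (2.02 to 2.15), where 4.01% of genes were past 2-fold. Lymphocyte-like cells were at 2.57 and 1.52 CPM, and KPF1F2 fibroblast-like cells at 0 and 3.71 CPM.

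Outside cluster 2 Hc had no single order by genotype. Cluster 22, of type 2-like cells, held 84.7 CPM in KP and 382 CPM in KPF1F2 before depletion, from 15 and 5 cells, and 123 and 320 CPM after it, from 52 and 46. Cluster 18 held 168 and 244 CPM before depletion and 131 and 90.8 CPM after it, with intervals that overlap in each pair. The other large clusters were nearly all of 1 genotype. KP cluster 3 held 75.8 and 113 CPM before and after depletion, and KP cluster 8 held 7.02 and 10.6 CPM. KPF1F2 cluster 27 held 46.2 and 26.3 CPM, and cluster 20 held 0 and 5.51 CPM. Cells with a CRE-ERT2 UMI had 142 and 24.8 CPM before depletion and 85.5 and 18.0 CPM after it, log2 folds of -2.47 and -2.18. Cells without such a UMI had 685 and 591 CPM before depletion and 305 and 684 CPM after it. KPF1F2 cluster 2 had CRE-ERT2 at 0 and 0.7 CPM and Foxa1_2 at 22.5 and 13.5 CPM, against 17.2 and 15.3 CPM of CRE-ERT2 and 12.4 and 10.8 CPM of Foxa1_2 in KP cluster 2. In KPF1F2 libraries the cells richest in Hc therefore carried little Cre transcript and as much Foxa1_2 as KP cells, and the part of this in the class average was not tested.

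C6, which joins C5b in the attack complex, had an epithelial source like Hc and a second one in the fibroblast-like class. Epithelial-like cells had 46.5 and 66.6 CPM before depletion and 26.6 and 57.2 CPM after it, log2 folds of 0.51 and 1.07. Cluster 2 had 133 and 220 CPM before depletion and 127 and 229 CPM after it. Cells with a CRE-ERT2 UMI had 20.5 and 17.04 CPM before depletion and 10.9 and 9.83 CPM after it, so the higher KPF1F2 sum was not found in them (log2 fold -0.13 after depletion). KPF1F2 cluster 27 had 23.9 and 23.6 CPM, whereas cluster 20 had 0 UMIs before depletion and 0.533 CPM after it, a ratio of 44.2 (23.1 to 97.3) after depletion. Within that class C6 lay mainly in cluster 24, at 40.1 and 97.4 CPM before depletion and 20.98 and 137 CPM after it. Cluster 29 was at 7.61 and 9.18 CPM in KPF1F2. The median cluster 24 cell had 0 C6 in KPF1F2 before depletion and in both genotypes after it. As cluster 24 also carried mural markers, which of its cells held C6 was not tested. Mesothelial-like cells had 0 C6 UMIs in the 3 libraries that held them, which allows up to 2.04 CPM in the 83 KPF1F2 cells after depletion, and lymphocyte-like cells had 0 in both pre-depletion libraries. Macrophage-like cells had 9 UMIs in KP and 58 in KPF1F2 (4.44 and 31.9 CPM).

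**Figure D5:**
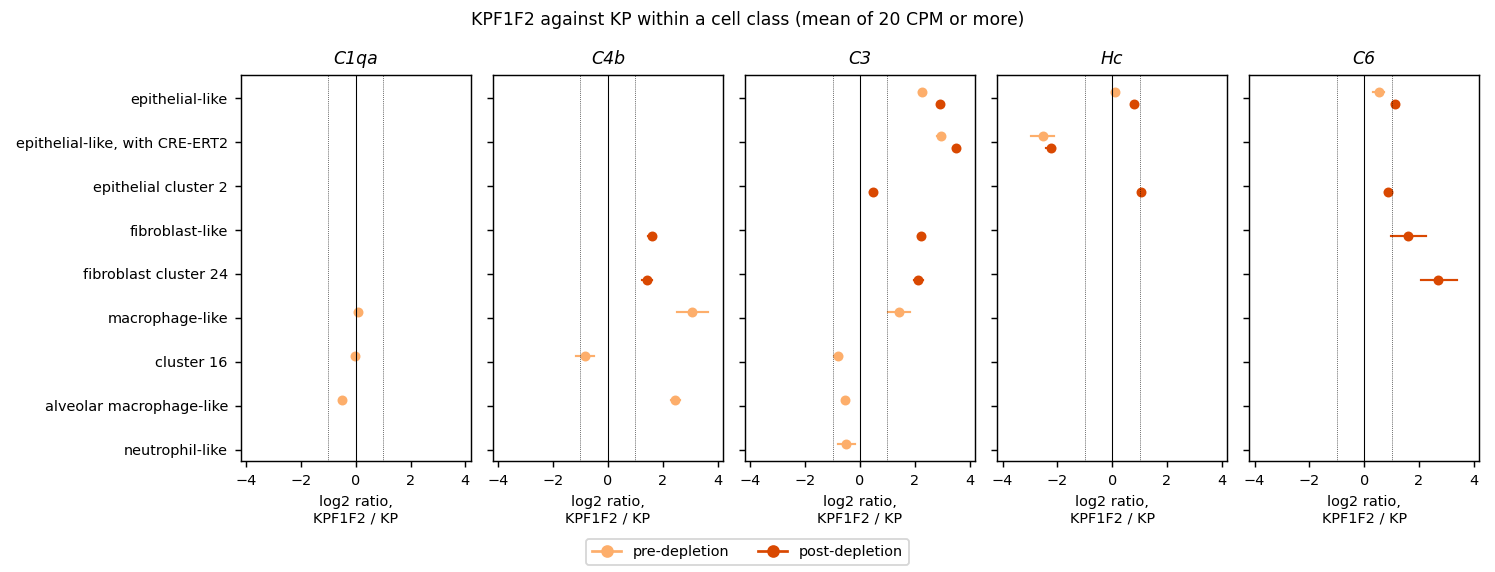
KPF1F2 over KP log2 fold (x axis) of C1qa, C4b, C3, Hc and C6 by cell class and preparation, for sums with a mean of 20 CPM or more, with 95% counting intervals. C3 is above 0 in epithelial-like and fibroblast-like cells and below 0 in alveolar macrophage-like cells, and C1qa is at 0.09 in macrophage-like cells.

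In fibroblast-like cells after depletion 4 of the 8 genes, C4b, C3, Cfb and C6, reached a mean of 20 CPM. All 4 were 2-fold or more higher in KPF1F2. Cfb and C6 were under 20 CPM in KP (20 and 23 UMIs) and reached that mean through their higher KPF1F2 level. Their place in this count thus depends on that level. This class sum joins cells of different clusters by genotype, and cluster 24 also carried mural markers. Within cluster 24 C4b, C3 and C6 were measured and were 2-fold higher, as were 5.01% of all genes there, and Cfb had 4 and 44 UMIs. In cluster 29 C4b, C3 and Cfb were less than 2-fold apart. In the class the median log2 fold of the 4 genes, with Cfb and C6 so admitted, was 1.91 against -0.16 over all genes. Of all genes in the class 12.1% were past 2-fold with 5.56% higher (340 higher and 401 lower, against 505 and 272 under TMM scaling). Of the 47 other genes listed for the pathway 46 were in the matrices. Of 13 measured in these cells, 6 were 2-fold higher in KPF1F2 and 1 was lower. C1ra and C1s1, the proteases of C1, were at 202 and 527 CPM and at 204 and 587 CPM in KP and KPF1F2. Serping1, the inhibitor of those proteases, was at 1312 and 2711 CPM, and C7, the next terminal component after C6, at 62.5 and 310 CPM. Cd55, which breaks up C3 convertases on the cell's own surface, was at 24.1 and 195 CPM, a ratio of 8.06 (5.58 to 12.1). C2, which joins C4b in a convertase, was at 36.6 and 83.2 CPM. The lower gene was Clu, at 739 and 128 CPM, which lymphocyte-like cells also held, at 79.4 and 11.9 CPM before depletion. As for the members, the class sum sets mostly cluster 24 in KP against mostly cluster 29 in KPF1F2. Within cluster 24 alone 12 of these genes were measured, of which C1ra, C1s1 and C7 were 2-fold higher in KPF1F2 and Clu was lower. Over all genes in cluster 24 the shares were 5.01% higher and 5.04% lower. Serping1 was at 1117 and 1832 CPM there, C2 at 27.7 and 37.6 CPM, and Cd55 had 6 and 28 UMIs.

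In epithelial-like cells 5 other pathway genes were measured and none was past 2-fold in either preparation, against 7.98% and 8.57% of all genes. Clu, a fluid-phase inhibitor of the attack complex, was abundant there, at 8626 and 5620 CPM before depletion and 12954 and 7011 CPM after it. Cd55 was at 53.1 and 84.0 CPM and at 48.9 and 91.6 CPM. In macrophage-like cells 5 of 13 measured were 2-fold higher in KPF1F2 and 1 was lower, against 3.83% and 3.07% of all genes. Among the higher pathway genes C5ar1, the receptor of the C5 fragment C5a, was at 98.1 and 314 CPM. Itgam, a chain of complement receptor 3, was at 62.1 and 167 CPM, and Cd93 at 13.3 and 106 CPM. C3ar1, the receptor of C3a, was at 269 and 371 CPM. C5ar1 was 2-fold higher in alveolar macrophage-like cells (46.1 and 94.6 CPM) and neutrophil-like cells (238 and 825 CPM) as well. It was the only higher one of 9 other pathway genes measured in each of these classes, against 1 lower in alveolar macrophage-like cells (Colec12) and 3 lower in neutrophil-like cells (Clu, Itgax and Lrp1). Cfp, properdin, which steadies the alternative convertase, was at 202 and 359 CPM in macrophage-like cells and 383 and 304 CPM in cluster 16.

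Genes with the most similar pattern were sought over 22 sums of class and library from 10 classes, as a description in which sums share libraries and depth. C1qa was closest to C1qb (Pearson r 0.98), C1qc (0.97) and C3ar1 (0.94). C4b was closest to C2 (0.92), Rcn3 (0.89) and C1ra (0.89), and Hc to Mal2 (0.98), Myh14 (0.98) and Rab25 (0.97). C3 had looser neighbours, Rhou (0.84), Igfbp6 (0.83) and Ugp2 (0.83). C6 was closest to Enpep (0.93), and Cfb to Il11ra1 (0.89).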

How the data were processed

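Each of the 4 libraries was made with the 10x 3′ kit, version 3.1, per the labels' protocols. The authors deposited whole-number UMI counts for each gene and barcode. The file headers name Cell Ranger 6.0.0 as their source, and the submitters' processing notes name mm10. The aligner settings were given by neither. These tables hold 5963 KP and 4662 KPF1F2 barcodes before depletion and 8536 and 4415 after it.

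Cells with at least 1000 UMIs, 500 genes and at most 20% mitochondrial UMIs were kept. Scrublet marked 0.028% to 0.156% of cells, under 0.5%, so the highest-scoring 0.8% of cells per 1000 barcodes were removed as doublets (181 and 131 cells before depletion, 247 and 91 after it). Cells were clustered with scanpy 1.11.5 and igraph 0.11.9 (2000 variable genes without complement genes, 30 components, 15 neighbours, Leiden resolution 1, no batch correction). A cluster took a "-like" name where 3 or more markers of a list were raised 2-fold and no other list led its 10 leading genes. Cluster 16 was left unnamed by stricter reading of that rule after the clusters were seen, and its division was also added then. Cluster 4 was left unnamed by a further rule on shallow clusters. Its depth was 0.302 of the library median, and no marker of the epithelial list was among its 10 leading genes. An epithelial-like cluster was type 2-like where 3 or more type 2 markers were raised 2-fold. In addition, no type 1, club, ciliated or gastric list could hold more of its 10 leading genes than the type 2 list.

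UMIs were summed per class and library and given as CPM with exact Poisson intervals, shares with Clopper-Pearson intervals and ratios with exact conditional binomial intervals (95%, scipy 1.17.1). Folds are log2 of (CPM + 1) in KPF1F2 over KP, for classes of 50 or more cells. Genes whose mean level was at least 20 CPM count as measured, and 2-fold as past the threshold. A gene low in KP can reach this mean through KPF1F2, and the reverse. TMM factors came from edgeR 4.0.16. On simulated totals of 5500 genes for epithelial-like cells after depletion, all 200 changed genes were recovered, 0 others were called and 95.3% of intervals held the true ratio. The draws were Poisson, with changes set beyond 2-fold in genes above the 20 CPM minimum, so this outcome follows from the setting. It checks the arithmetic only, because variation between cells or animals was not simulated.

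The members and lists were chosen with earlier results of these data known. The 8 members were named throughout, pathway genes where a class of 50 or more cells held 50 CPM (20 of 46 did), and for likeness the 3 genes of highest correlation with 100 CPM or more in a sum. Alternatives changed 1 choice at a time: doublets, resolution, clustering genes, cell filter, scaling, cell weights, CRE-ERT2 UMIs, added CPM, free RNA, gene minimum and unnamed clusters, with cluster-wise sums added after the data were seen. One allele that all 4 groups share is not reported here.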

Additional observations from a re-analysis of the deposited data

Results flagged for a closer look

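C4b, C3 and C1qb differed in direction between cell classes under the same KPF1F2 over KP contrast before depletion, and none of these differences was tested. C4b had log2 folds of 2.41 in alveolar macrophage-like cells and 2.98 in macrophage-like cells, but -0.79 in cluster 16, where piece 16a went from 37.6 to 11.3 CPM and piece 16b from 19.0 to 27.03 CPM. C3 had log2 folds of 2.24 in epithelial-like, 1.39 in macrophage-like and 1.38 in monocyte-like cells, but -0.54 in alveolar macrophage-like cells, -0.50 in neutrophil-like cells and -0.80 in cluster 16, again with 16a lower in KPF1F2 (181 and 82.9 CPM) and 16b not (48.0 and 58.8 CPM). The neutrophil-like value is 0.27 under TMM scaling. C1qb had a log2 fold of 1.31 in monocyte-like cells, from 7 and 32 UMIs, and -0.36 in alveolar macrophage-like cells.

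After depletion Hc had a log2 fold of -2.18 in epithelial-like cells with a CRE-ERT2 UMI and 1.16 in those without, a difference that was not tested. Cells with such a UMI had median depths of 21116 UMIs in KP and 33637 in KPF1F2, and those without had 9178 and 11618. In the KPF1F2 library before depletion, barcodes that failed the cell filters held Hc at 91.2 CPM, above the 43.1 CPM of the kept cells.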

How the results depend on the processing

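No paired analysis was possible because each group has 1 library. Of 24 log2 folds with a mean of 20 CPM, 12 were of size 1 or more, and under 116 alternatives that left the cells as they were or reclustered them all 116 kept the sign and 115 the size. The exception was C6 in epithelial-like cells after depletion with equal weight per cell (0.75). That fold of 1.07 was -0.13 in cells with a CRE-ERT2 UMI. Over all results and alternatives 293 values stayed near the main value and 126 moved. In 1 case a fold of size 1 or more changed sign. Moved means outside the counting interval of the main value, or past a set limit for gene counts. C3 in epithelial-like cells before depletion (2.24) was 2.10 with a stricter cell filter, 2.10 under TMM scaling, 2.14 under median-of-ratios scaling, 2.09 with equal weight per cell, 2.92 with and 1.48 without a CRE-ERT2 UMI, and 4.07 without cluster 2. After depletion (2.91) it was 2.86, 2.87, 2.86, 2.65, 3.47, 2.62 and 4.29 in the same order, and 0.46 in cluster 2 alone. Hc after depletion (0.80) was 0.76 under TMM, 0.75 under median-of-ratios scaling, 0.40 with equal weight, 0.85 with 5% free RNA subtracted, -2.18 with and 1.16 without a CRE-ERT2 UMI, 1.06 in cluster 2 alone and -0.90 without it. C3 in fibroblast-like cells (2.21) was 1.90 with doublets kept, 1.99 with the stricter filter, 2.44 under TMM and 2.38 under median-of-ratios scaling. C1qa in macrophage-like cells (0.09) was -0.049 with complement genes in the clustering and 0.045 with equal weight. C1qa in alveolar macrophage-like cells ranged from -1.08 to 0.36. Epithelial genes past 2-fold (450 before and 488 after depletion) were 1677 and 1587 with no gene minimum, 687 with a CRE-ERT2 UMI before depletion and 187 in cluster 2 after it. The macrophage-like share of KP C1qa (51.4%) was 50.5% with doublets kept, 53.6% with complement genes in the clustering, 53.6% with the stricter filter and 83.0% over named clusters. The epithelial-like share of KP C3 after depletion (55.2%) was 53.1% with doublets kept, 53.3% at resolution 0.5 and 57.1% with the stricter filter. That of Hc (94.2%) was 99.7%, 97.3% and 99.9% in the same order, 96.9% at resolution 2 and 99.8% over named clusters. Apart from fewer cells, genes or unnamed clusters entering a sum, the cause of these moves was not tested. At resolution 0.5 no macrophage-like class formed, and cluster 2 alone was not run before depletion (43 KPF1F2 cells). Classes of 3 to 30 cells limit the KP fibroblast-like and mesothelial-like values.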
